A study of Homo sapiens with 6 samples.

Results

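The EPHB receptors and ephrin-B ligands were examined in 6 RNA-seq libraries of hESC-derived 3PPE cells, in which HOXA3 had been targeted by siRNA or not. The members were chosen by gene symbol: the 5 receptor genes EPHB1, EPHB2, EPHB3, EPHB4 and EPHB6 and the 3 ligand genes EFNB1, EFNB2 and EFNB3, 8 of the 58735 genes in the table. All of them carried enough counts to be tested. All libraries came from H9 cells (WA09), an established line of human embryonic stem cells, that were grown on mouse feeder cells and then exposed to Activin A and WNT3A, followed from day 4 by retinoic acid, BMP4, the TGF-β inhibitor SB431542 and the Wnt secretion inhibitor IWP2. At day 7 the cultures received either a negative control siRNA (siControl, called NC in the study, genotype WT) or a HOXA3 siRNA (siHOXA3, genotype HOXA3 knockdown) with a lipid transfection reagent. RNA was taken from both groups at day 9, with 3 libraries each, from 1 cell line, and the p-values measure the spread between these libraries. The study describes its repeats as biologically independent, while the labels speak only of a triplicate. The study asked whether HOXA3 acts on EPHB2 in these cells.

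Eph receptors are receptor tyrosine kinases that are activated by ephrins on the surface of a neighbouring cell. Ephrin-B ligands span the membrane and pass a reverse signal into their own cell when a receptor binds them. The pair sorts cells into compartments and guides their migration, and in the intestinal crypt EPHB2 and EPHB3 are known targets of Wnt signaling through TCF factors. In blood vessels EFNB2 marks arteries and EPHB4 marks veins, and ephrin-B2 on neural crest cells takes part in the descent of the thymus.

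The regions just before the starts of EPHB2, EPHB3 and EPHB4 are shown because the study looked for HOXA3 at the EPHB2 promoter and because these were the most abundant receptors in the libraries by count. HOX proteins bind DNA around a TAAT core, and capitals mark this core on either strand (TAAT or ATTA). The sequences are those of RefSeq on GRCh38.p14, printed up to the annotated start, at chr1:22710589-22710838 (plus strand), chr3:184561535-184561783 (plus strand) and chr7:100827524-100827773 (minus strand).
EPHB2: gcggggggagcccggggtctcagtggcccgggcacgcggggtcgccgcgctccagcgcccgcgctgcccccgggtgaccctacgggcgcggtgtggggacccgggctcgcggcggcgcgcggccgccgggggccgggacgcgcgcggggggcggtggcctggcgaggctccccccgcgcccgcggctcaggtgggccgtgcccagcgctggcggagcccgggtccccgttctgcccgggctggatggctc
EPHB3: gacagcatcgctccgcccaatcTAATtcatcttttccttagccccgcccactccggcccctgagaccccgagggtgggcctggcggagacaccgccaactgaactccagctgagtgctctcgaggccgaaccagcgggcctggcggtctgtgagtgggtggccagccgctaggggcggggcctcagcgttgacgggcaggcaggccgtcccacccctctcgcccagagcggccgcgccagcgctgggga
EPHB4: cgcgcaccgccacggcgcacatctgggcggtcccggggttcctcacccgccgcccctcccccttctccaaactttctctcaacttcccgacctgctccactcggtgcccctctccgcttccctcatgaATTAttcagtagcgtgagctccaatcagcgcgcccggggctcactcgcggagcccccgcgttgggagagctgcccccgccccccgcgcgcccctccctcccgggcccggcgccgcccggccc
The EPHB2 stretch held 0 TAAT cores, and the EPHB3 and EPHB4 stretches held 1 each. Windows from 250 bases before to 50 bases after the RefSeq start were matched for 7 of the 8 members (not EFNB3), and those of EPHB1 and EPHB6 lie at starts within the GENCODE bounds of these genes. A TAAT core lay in the windows of EPHB3, EPHB4 and EPHB6, against 50.3% of all 34796 windows. The TCF/LEF core CTTTGA, on either strand (CTTTGA or TCAAAG), lay in 0 of the 7 windows, against 12.9% of all. Such matches are letters in a short window and do not show binding or its absence. The study predicted HOXA3 sites over a longer stretch before EPHB2, which was not analysed here. By chromatin immunoprecipitation it also reported more EPHB2 promoter DNA with a HOXA3 antibody than with IgG. After HOXA3 knockdown it reported lower EPHB2 by qRT-PCR and Western blot, which are other measures than the counts used here. The EPHB2 window was 83.0% G or C and that of EFNB2 78.7%, above the 95th percentile of all windows (77.7%), whereas the EPHB6 window was 48.0% G or C, below the median of 58.7%.

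The libraries held 14117150 to 15282307 counts, so that 3 counts, the limit that a count of 0 allows, were worth 0.197 to 0.211 CPM (counts scaled to a common library total after TMM normalization), which covers counting error only. The library labelled siHOXA3 replicate 2 stood apart. Its counts differed from those of the other siHOXA3 replicates by a chi-square per degree of freedom of 31.0 and 34.1, against 5.85 between the other 2 and 4.83 to 9.48 within siControl. In it 364 of 16561 genes lay more than 2-fold from the median of the other 5 libraries, against 93 to 177 in the others. HOXA3, the targeted gene, had 16.6, 15.9 and 15.5 CPM in siControl replicates 1, 2 and 3 and 10.9, 13.2 and 15.5 CPM in siHOXA3 replicates 1, 2 and 3. The groups overlapped at this gene (log2 fold change -0.27, SE 0.157, adjusted p = 0.828 by the quasi-likelihood test of edgeR), with siControl replicate 3 just below siHOXA3 replicate 3. The study itself reported lower HOXA3 after the siRNA by qRT-PCR, Western blot and immunofluorescence, which are other measures than these counts. Among 10 markers of pharyngeal endoderm, 3 had a mean of at least 1 CPM: EPCAM, EYA1 and HOXA3. PAX9, TBX1, FOXA2, SOX17, PAX1 and PAX8 had at most 16 counts in any library, so the labelled cell type is only in part seen in its markers. All 6 amnion and trophoblast markers were detected (summed level 2616 to 2850 CPM in siControl and 2699 to 2920 CPM in siHOXA3), as were 6 of 7 mesenchyme markers (3494 to 3654 and 3357 to 3919 CPM), PRRX1 being at 0. The sum of 4 neural crest markers, led by TFAP2B and with FOXD3 at 0, was 12.3 to 13.4 CPM in siControl and 18.0 to 20.6 CPM in siHOXA3, without overlap. Of the pluripotency markers 2 of 4 had a mean of at least 1 CPM (98.9 to 115 CPM in sum in siControl and 104 to 126 CPM in siHOXA3), and of the neural markers 0 of 5. The part of these markers in the results below was not tested, and in such bulk samples fewer cells of a type and less RNA per cell cannot be told apart.

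Both classes of the signaling pair were transcribed in these cells, with EFNB2 the most abundant member per kilobase. EFNB2, the ligand bound most strongly by EPHB4, had 32.6 ± 1.15 CPM per kilobase of exon (SD, n = 3) in siControl, at the 92.1th percentile of the 13433 protein-coding genes tested. EPHB4 and EPHB3 followed with 19.9 ± 1.70 and 18.9 ± 0.574 CPM per kilobase (SD, n = 3 each), and their ranges overlapped. EPHB2 came next with 10.3 ± 0.640 CPM per kilobase (SD, n = 3), at percentile 67.8, apart from both EPHB3 and EFNB1. EFNB1 (7.33 ± 0.540), EFNB3 (6.30 ± 0.571) and EPHB6 (5.999 ± 0.132 CPM per kilobase, SD, n = 3 each) lay near the median of coding genes, and EFNB3 and EPHB6 overlapped. EPHB1 was lowest, with 0.336 ± 0.0308 CPM per kilobase (SD, n = 3), at percentile 6.91, and 33 to 39 counts in a siControl library.

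The place of EPHB2 in this order rested on the length it was divided by. Its annotated exons add up to 12516 bases and its longest transcript has 10816, while its longest coding sequence has 3165, close to those of EPHB4 (2961) and EPHB3 (2994). Per kilobase of coding sequence, EPHB2 reached 40.8 ± 2.53 CPM in siControl (SD, n = 3), above EPHB3 (28.5 ± 0.869) and overlapping EPHB4 (43.2 ± 3.69). EFNB2 stayed highest and EPHB1 lowest with the exon, transcript and coding lengths. In siHOXA3 the order by exon length was the same as in siControl, but the ranges of EPHB2 (6.44 to 9.84 CPM per kilobase) and EFNB1 (6.20 to 7.74) now overlapped.

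**Figure D1:**
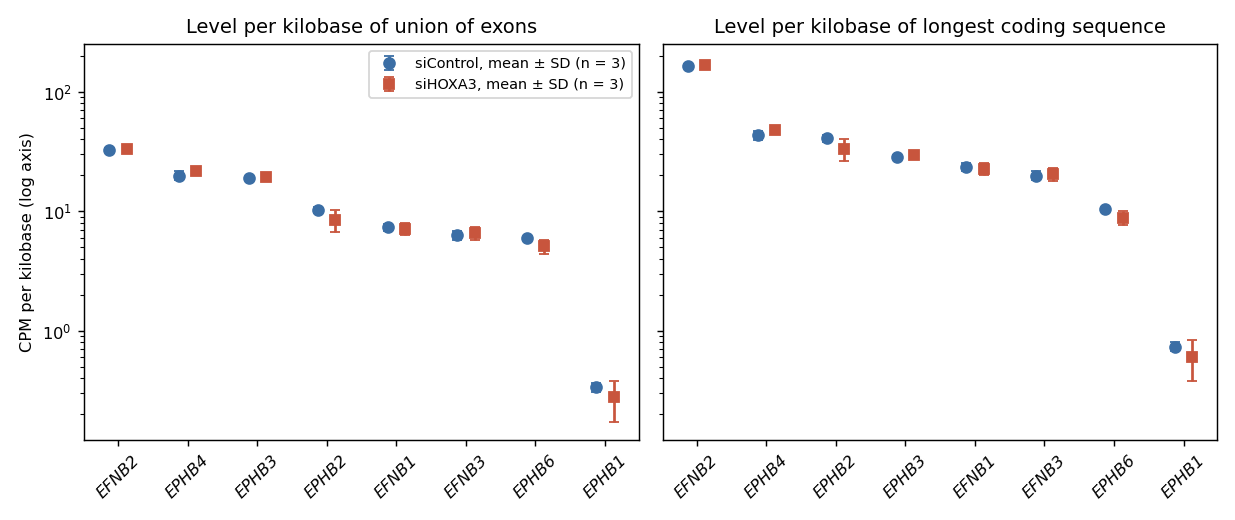
Mean level of each member in CPM per kilobase (log axis), with SD over the 3 libraries of each group, divided by the union of annotated exons (left) or by the longest coding sequence (right). EFNB2 is highest and EPHB1 lowest in both panels, and EPHB2 lies below EPHB3 on the left (10.3 CPM per kilobase in siControl) and above it on the right (40.8).

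EPHB2, the receptor that the study followed (ENSG00000133216, chromosome 1 from 22710839 to 22921500, plus strand, GRCh38), had 2059, 1872 and 1910 counts in siControl replicates 1, 2 and 3 and 1657, 1212 and 1748 counts in siHOXA3 replicates 1, 2 and 3. After normalization these were 138, 124 and 125 CPM in siControl and 114, 80.6 and 123 CPM in siHOXA3. Every siHOXA3 library thus lay below every siControl library, by a wide margin in replicate 2 but narrowly in the closest pair, siHOXA3 replicate 3 (123.1 CPM) and siControl replicate 2 (123.7 CPM). The mean was 129 ± 8.01 CPM in siControl and 106 ± 22.4 CPM in siHOXA3 (SD, n = 3 each), and its log2 fold change was -0.29 (SE 0.145, 95% interval -0.60 to 0.03). The quasi-likelihood test of edgeR gave an adjusted p of 0.791, and the exact permutation test (two-sided) gave p = 0.1, the smallest that 3 libraries against 3 allow. In percent of the siControl level, the interval of the difference ran from -34.2% to 2.31%.

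EPHB6, a receptor whose kinase domain lacks catalytic activity (ENSG00000106123, chromosome 7 from 142855061 to 142871094, plus strand), showed the same arrangement at a lower level. It had 31.6, 31.5 and 32.8 CPM in siControl replicates 1, 2 and 3 and 26.3, 23.7 and 31.2 CPM in siHOXA3 replicates 1, 2 and 3. The siHOXA3 libraries were again all below siControl, with replicate 2 the lowest and replicate 3 close to siControl. Its log2 fold change was -0.24 (SE 0.127, 95% interval -0.52 to 0.04, adjusted p = 0.811 from edgeR). Of all genes tested, 6.88% were lower in siHOXA3 without overlap, and 2 of the 8 members were, both of them receptors. No member was higher without overlap, as 6.41% of all genes were.

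EPHB1, a receptor best known from the nervous system (ENSG00000154928, chromosome 3 from 134597801 to 135260467, plus strand), had 34, 39 and 33 counts in siControl replicates 1, 2 and 3 and 31, 38 and 16 counts in siHOXA3 replicates 1, 2 and 3. The value of siHOXA3 replicate 3 stood well below all others, and siHOXA3 replicate 1 (31 counts) lay just below the lowest siControl library (33 counts). The log2 fold change was -0.27 (SE 0.336) with an adjusted p of 0.902 from edgeR, and its interval, from -50.5% to 37.9% of the siControl level, was the widest of the members. The libraries do not tell differences within this interval apart, and no detection limit was computed.

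EPHB3 and EPHB4 did not share the arrangement of EPHB2. EPHB3 (ENSG00000182580, chromosome 3 from 184561784 to 184582409, plus strand) had 88.4, 84.3 and 83.6 CPM in siControl replicates 1, 2 and 3 and 89.2, 83.9 and 92.0 CPM in siHOXA3 replicates 1, 2 and 3. The groups overlapped, and the log2 fold change was 0.05 (SE 0.0940, 95% interval -0.16 to 0.26, adjusted p = 0.935 from edgeR). EPHB4 (ENSG00000196411, chromosome 7 from 100802565 to 100827521, minus strand) had 141, 121 and 122 CPM in siControl replicates 1, 2 and 3 and 151, 138 and 132 CPM in siHOXA3 replicates 1, 2 and 3. Only siControl replicate 1 reached into the siHOXA3 range, and the log2 fold change was 0.13 (SE 0.104, 95% interval -0.09 to 0.36, adjusted p = 0.854 from edgeR). EPHB4 shares 1.07% of its exon bases with SLC12A9 on the other strand.

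**Figure D2:**
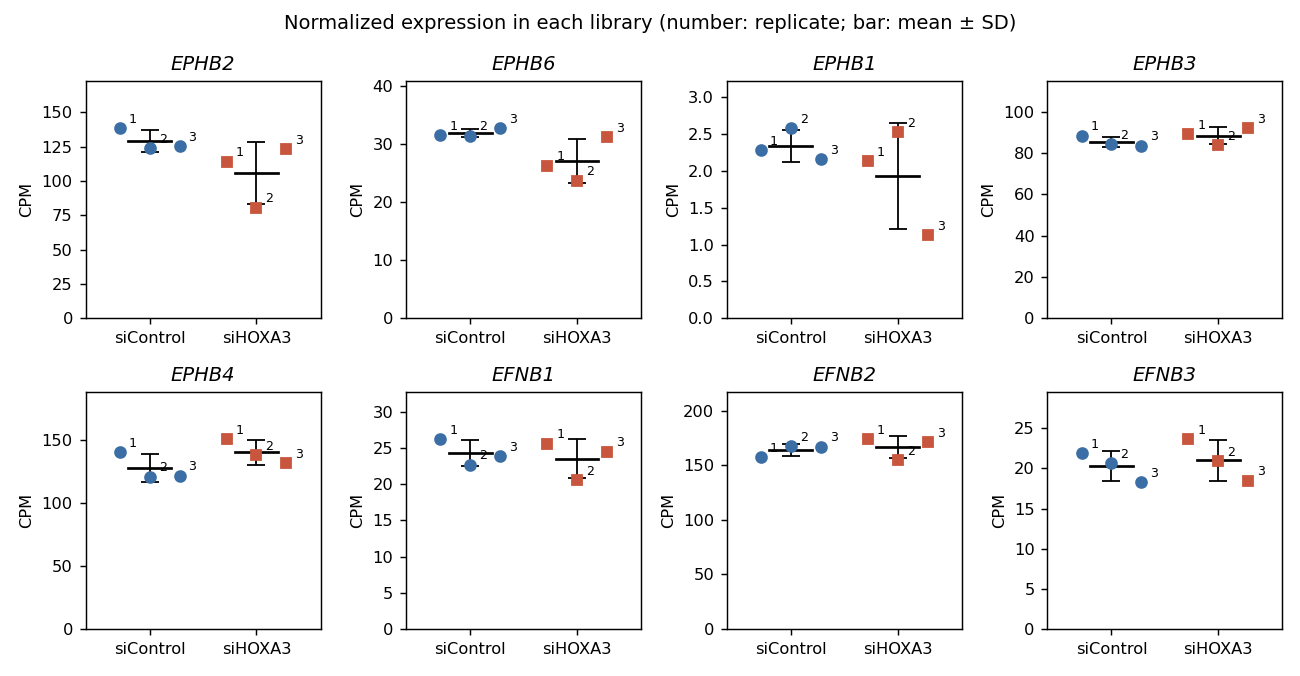
Normalized expression (CPM, axes from 0) of each member in the 3 siControl and 3 siHOXA3 libraries, with the replicate number beside each point and a bar for the mean ± SD. EPHB2 and EPHB6 are lower in every siHOXA3 library, with replicate 2 the lowest (80.6 and 23.7 CPM), and the groups overlap for the other 6 genes.

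The ephrin-B ligands differed between the groups by less than the spread of their replicates. EFNB2 (ENSG00000125266, chromosome 13 from 106489731 to 106535662, minus strand) had 157, 167 and 167 CPM in siControl replicates 1, 2 and 3 and 174, 155 and 171 CPM in siHOXA3 replicates 1, 2 and 3, so that the highest and the lowest value were both siHOXA3 libraries. The log2 fold change was 0.02 (SE 0.0963), with an interval from -12.3% to 17.7% of the siControl level. An antisense gene, AL138689.2, covers 26.2% of its exon bases and had 34 to 81 counts against at least 2325 for EFNB2, and since nothing says that reads were counted by strand, part of these reads may belong to either gene. EFNB1 (ENSG00000090776, chromosome X from 68828997 to 68842147, plus strand), the ligand altered in craniofrontonasal syndrome, had 26.3, 22.7 and 23.9 CPM in siControl replicates 1, 2 and 3 and 25.6, 20.5 and 24.5 CPM in siHOXA3 replicates 1, 2 and 3. Its groups overlapped with a log2 fold change of -0.04 (SE 0.132). EFNB3 (ENSG00000108947, chromosome 17 from 7705202 to 7711378, plus strand), a ligand known from the midline of the nervous system, had 21.9, 20.7 and 18.3 CPM in siControl replicates 1, 2 and 3 and 23.7, 20.9 and 18.5 CPM in siHOXA3 replicates 1, 2 and 3, with a log2 fold change of 0.05 (SE 0.140). The sign of all 3 ligands turned when single libraries were left out. Summed over the ligands the level was 208 ± 2.83 CPM in siControl and 211 ± 13.8 CPM in siHOXA3 (SD, n = 3 each), and summed over the receptors it was 377 ± 21.1 and 364 ± 30.1 CPM.

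None of the 8 members passed an adjusted p of 0.05 by edgeR, where 0.00604% of the 16561 genes tested did, and none did by DESeq2, where 0.229% did. At an unadjusted p under 0.05 the count of members was also 0 in these fits, against 6.36% of all genes by edgeR (2.57% with the lower level in siHOXA3) and 5.65% by DESeq2. Other settings brought single receptors under it: EPHB2 without a filter on low counts (unadjusted p = 0.0208 from edgeR), EPHB2 with the replicate number as a block (0.0308), EPHB4 with limma-voom and quality weights (0.0437), and both EPHB2 and EPHB6 without siHOXA3 replicate 3 (0.0189 and 0.0244), with adjusted p-values of 0.359 to 0.791. The members' median log2 fold change was -0.01, with 4 lower and 4 higher, beside 0.0019 over all genes tested. The 5 receptors had a median of -0.24 and the 3 ligands one of 0.02. EPHB2 stood at percentile 9.15 of the log2 fold changes of all genes, EPHB1 at 9.73, EPHB6 at 12.0 and EPHB4 at 72.8.

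**Figure D3:**
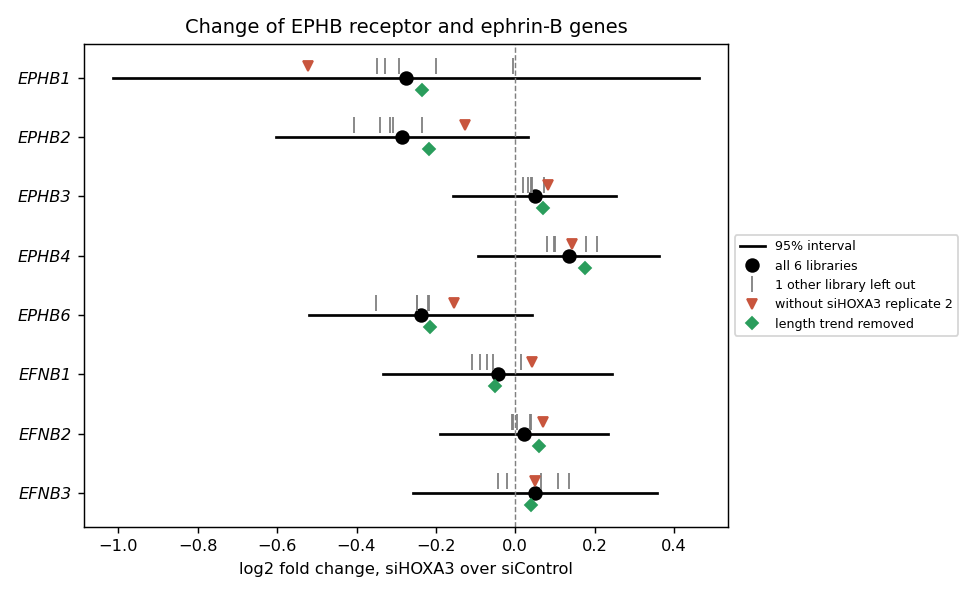
Log2 fold change of each member in siHOXA3 over siControl (black points, all 6 libraries) with its 95% interval, the values with 1 library left out (grey ticks; red triangles without siHOXA3 replicate 2) and the value with the length trend removed (green diamonds). Every interval includes 0, and EPHB2 moves from -0.29 to -0.13 without siHOXA3 replicate 2 and to -0.22 with the length trend removed.

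The balance between receptors was read within each library, where no scaling between libraries enters. A trend over transcript length within a library, described below, does enter these ratios and shares. The ratio of EPHB2 to EPHB4 counts was 0.984, 1.02 and 1.03 in siControl replicates 1, 2 and 3 and 0.755, 0.583 and 0.933 in siHOXA3 replicates 1, 2 and 3. EPHB2 and EPHB4 were thus nearly equal in all siControl libraries, and EPHB2 was the lower of the pair in all siHOXA3 libraries (log2 difference of the ratio -0.44, exact permutation test, two-sided, p = 0.1). EPHB2 to EPHB3 went from 1.51 ± 0.0493 to 1.19 ± 0.203 and EPHB2 to EFNB2 from 0.789 ± 0.0783 to 0.632 ± 0.101 (SD, n = 3 each), also without overlap. EPHB2 to EPHB6 overlapped between the groups, with 4.04 ± 0.298 in siControl and 3.89 ± 0.468 in siHOXA3 (SD, n = 3 each). As a share of all EPHB receptor counts, EPHB2 made up 34.0% to 34.5% in siControl and 29.8%, 24.5% and 32.4% in siHOXA3 replicates 1, 2 and 3, and EPHB4 33.4% to 35.0% and 39.5%, 42.0% and 34.8%. These ratios and shares were chosen with the values of EPHB2 known. They share their genes with each other. Some ratios without EPHB2 were also apart: EPHB3 to EPHB6 (2.68 ± 0.125 in siControl, 3.29 ± 0.306 in siHOXA3) and EPHB6 to EFNB2 (0.195 ± 0.00630 and 0.162 ± 0.0173, SD, n = 3 each). The groups overlapped for EPHB3 to EPHB4, EPHB3 to EFNB2, EPHB4 to EPHB6 and EPHB4 to EFNB2. Ratios of genes outside the members were not computed for comparison.

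The lowest value of EPHB2 came from the library in which long transcripts were low in general. In siHOXA3 replicate 2 the median log2 deviation from the other 5 libraries was 0.36 over 2063 coding genes with a longest transcript of up to 2000 bases and -0.42 over 318 genes with 10000 to 12000 bases. In the other 5 libraries the medians of these length classes lay between -0.07 and 0.05. EPHB2 deviated by -0.62 in that library, and the 379 coding genes within 10% of its length had a median of -0.40, with 27.97% of them below EPHB2. EPHB6, with a longest transcript of 4409 bases, deviated by -0.40, where genes of its length had a median of -0.05 and 14.6% of them lay lower.

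Removing the trend over transcript length from each library, a correction chosen after the data were seen, left both receptors lower in siHOXA3. The corrected values of EPHB2 were 132, 122 and 122 CPM in siControl replicates 1, 2 and 3 and 107, 99.2 and 116 CPM in siHOXA3 replicates 1, 2 and 3, which put replicate 2 near the other 2. The log2 fold change was -0.22 (SE 0.0950) with an unadjusted p of 0.0385 and an adjusted p of 0.713 from edgeR. EPHB6 was at -0.21 (SE 0.118, adjusted p = 0.809 from edgeR). With this correction 6.63% of all genes were lower and 6.26% higher without overlap, and among the members EPHB2 and EPHB6 were lower and EPHB3 and EFNB2 higher. The corrected ratio of EPHB2 to EPHB4 was 0.959, 1.02 and 1.00 in siControl replicates 1, 2 and 3 and 0.721, 0.666 and 0.897 in siHOXA3 replicates 1, 2 and 3. In the same order, EPHB2 to EPHB3 was 1.51, 1.46 and 1.45 and then 1.21, 1.14 and 1.28. EPHB2 to EFNB2 was 0.857, 0.738 and 0.733 and then 0.626, 0.597 and 0.691. EPHB2 to EPHB6 still overlapped between the groups, and the receptor shares were not corrected. Leaving siHOXA3 replicate 2 out instead moved EPHB2 to -0.13 and EPHB6 to -0.15 on the log2 scale. A pair of marker lists also stood apart in that library: the endothelium list, led by KDR, had 81.4 CPM against 111 to 127 CPM in the other 5 libraries, with PECAM1 and ERG at 0 in all, and the pharyngeal endoderm list, led by EPCAM, had 440.5 CPM against 311 to 339.6 CPM. These sums are values without removal of the length trend, and the part of the trend in them was not tested. The part of these marker lists in the values of EPHB2 and EPHB6 was not tested either.

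**Figure D4:**
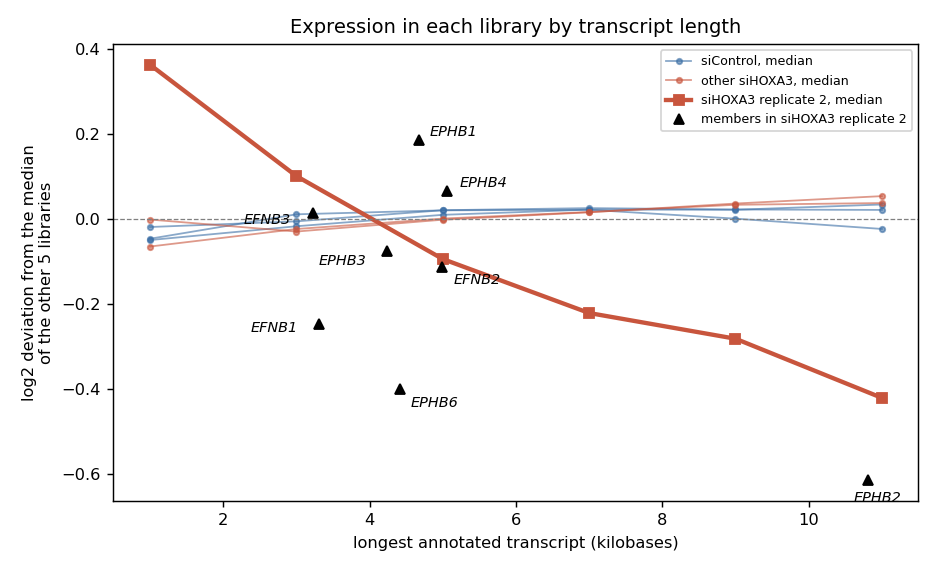
Median log2 deviation of each library from the median of the other 5, for coding genes in classes of longest annotated transcript (kilobases), with the members' own deviations in siHOXA3 replicate 2 as triangles. The line of siHOXA3 replicate 2 runs from 0.36 to -0.42 while the others stay within 0.07 of 0, and EPHB2 (-0.62), EPHB6 (-0.40) and EFNB1 (-0.25) lie farthest below that line.

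Reads could be assigned to single members with little ambiguity. EPHB3, EPHB6, EFNB1 and EFNB3 shared none of their 50-base stretches with a transcript of another gene, and EPHB1, EPHB2 and EPHB4 shared 0.226%, 0.237% and 0.354%. EFNB2 shared 21.6%, all with its antisense gene. The 2 protein-coding genes on each side of EPHB2, the complement genes C1QC and C1QB and, beyond it, LACTBL1 and TEX46, were at or near 0 in all libraries, with means of at most 0.0887 CPM in either group, so nothing could be compared there.

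EPHA4, which also binds ephrin-B ligands, had 31.4 ± 4.58 CPM in siControl and 26.5 ± 2.87 CPM in siHOXA3 (SD, n = 3 each), and its log2 fold change was -0.24 (SE 0.141, adjusted p = 0.828 from edgeR). EFNA5, an ephrin-A that also binds EPHB2, had 45.1 ± 2.45 and 43.8 ± 3.67 CPM (SD, n = 3 each), and its log2 fold change was -0.04. Both overlapped between the groups.

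The partners of the receptors were read from lists of genes that cut, relay or end the signal, and 0 genes of the lists described here passed an adjusted p of 0.05 by edgeR. Of 7 tested proteases that cut ephrins, Eph receptors or the surrounding matrix, 4 were lower and 3 higher in siHOXA3, with a median log2 fold change of -0.06. Without overlap, 2 were lower and 2 higher, beside 6.88% and 6.41% of all genes tested. PSEN2 and MMP9 are named for the smallest unadjusted p of this list by edgeR, and MMP2 as its most abundant gene per kilobase. PSEN2, a subunit of γ-secretase, had 12.9 ± 0.799 CPM in siControl and 9.06 ± 1.69 CPM in siHOXA3 (SD, n = 3 each), and its log2 fold change was -0.51 (SE 0.175, adjusted p = 0.710 from edgeR). The gelatinase MMP2 had 242, 253 and 244 CPM in siControl replicates 1, 2 and 3 and 300, 293 and 297 CPM in siHOXA3 replicates 1, 2 and 3. Its groups were far apart for their spread, the log2 fold change was 0.27 (SE 0.0937, adjusted p = 0.720 from edgeR), and siHOXA3 replicate 2 lay with the other 2. MMP9, the other gelatinase, had 1.76 ± 0.657 and 3.37 ± 0.729 CPM (SD, n = 3 each), and its log2 fold change was 0.93 (SE 0.325).

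Among 17 adaptors and kinases that bind the activated receptor, 12 were lower and 5 higher, within a narrow range of log2 fold changes from -0.20 to 0.18, and 0 had an unadjusted p under 0.05 by edgeR. Without overlap, 3 of the 17 were lower and 0 higher. YES1, a Src family kinase, was lower without overlap (176 ± 4.41 against 155 ± 14.6 CPM, SD, n = 3 each), and its relative FYN overlapped (log2 fold change 0.16). CRKL, the most abundant of the list per kilobase, was at -0.08.

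Of 9 partners of ephrin-B reverse signaling, 4 were lower and 5 higher, and without overlap 1 was lower and 0 higher. GRIP1, a scaffold that binds the tail of ephrin-B ligands, had 44.1, 40.4 and 43.6 CPM in siControl replicates 1, 2 and 3 and 37.9, 29.3 and 36.4 CPM in siHOXA3 replicates 1, 2 and 3. It was lower in every siHOXA3 library, and the log2 fold change was -0.31 (SE 0.124, adjusted p = 0.733 from edgeR). PARD6A, a polarity protein, was at 0.58 (SE 0.331) and SDCBP (syntenin) at 0.04. The 4 tested phosphatases lay between -0.17 (PTPRJ) and 0.15 (ACP1), with PTPN11 at -0.11.

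Of 13 Wnt targets of the intestinal crypt, the group to which EPHB2 and EPHB3 belong in that tissue, 9 could be tested, and LGR5, ASCL2, SP5 and NKD1 had too few counts. Among the 9, 3 were lower and 6 higher, with a median log2 fold change of 0.06, and without overlap 1 was lower and 1 higher. LEF1, a TCF family factor and Wnt target, had 11.6 ± 1.22 CPM in siControl and 14.8 ± 0.856 CPM in siHOXA3 (SD, n = 3 each), and its log2 fold change was 0.35 (SE 0.148, adjusted p = 0.741 from edgeR), opposite in sign to EPHB2. RNF43 and SOX9 were at 0.36 and 0.22. On the other side, and named after their values were seen, CD44, a hyaluronan receptor, was lower without overlap at 2.50 ± 0.626 against 1.83 ± 0.273 CPM (SD, n = 3 each) with a log2 fold change of -0.45 (SE 0.305), and CCND1 (cyclin D1) overlapped at -0.26 (SE 0.265).

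**Figure D5:**
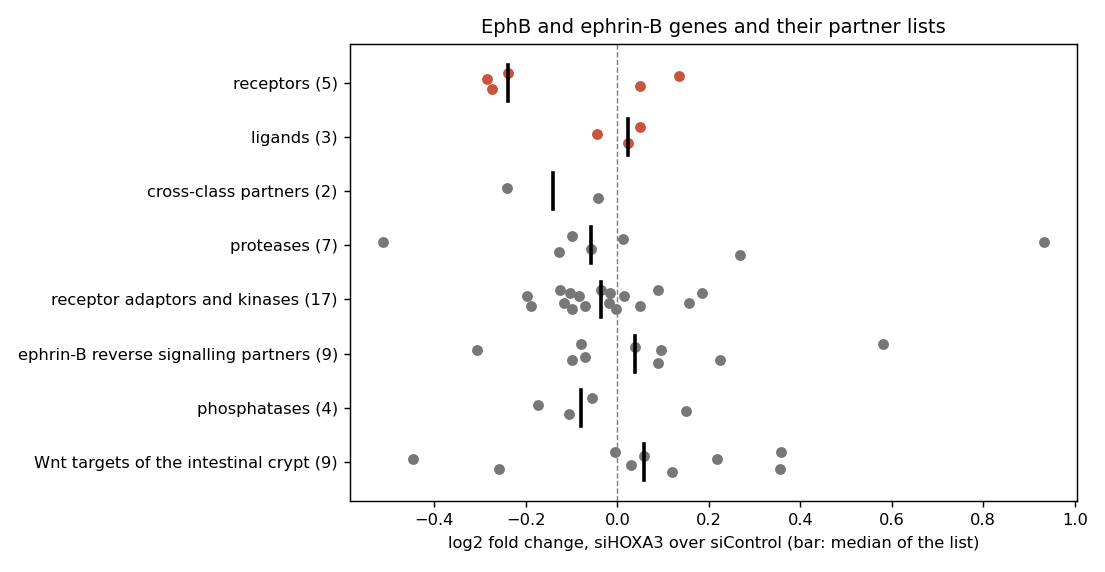
Log2 fold change in siHOXA3 over siControl of every tested gene of the receptor and ligand lists (red) and of the partner lists described here (grey), with the number tested in brackets and a black bar at each median. The receptor median is -0.24, and the medians of the lists with more than 2 genes lie between -0.08 and 0.06 otherwise.

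The genes whose values ran most like those of EPHB2 were found among 10855 coding genes with a mean of at least 5 CPM, by the root mean square difference of centred log2 CPM over the 6 libraries. They were RALGPS1 (difference 0.0125), RANBP10 (0.0356) and PTK2B (0.0401), beside a root mean square of 0.248 for EPHB2 itself. RALGPS1, an exchange factor for Ral GTPases, had 29.9, 26.4 and 27.0 CPM in siControl replicates 1, 2 and 3 and 24.1, 17.2 and 26.0 CPM in siHOXA3 replicates 1, 2 and 3. All 3 genes were lowest in siHOXA3 replicate 2, as EPHB2 was. The match used values without removal of the length trend, which was strongest in that library, and the part of the trend in the match was not tested. EFNB2, which varied little (root mean square 0.0616), was matched most closely by CNOT6, with a difference of 0.0162.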

How the data were processed

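The authors deposited 1 table of raw read counts per gene for 6 libraries. The libraries were made by the LM-Seq protocol (the labels also name a SMARTER kit) and read as single reads. The aligner, the counting program and the handling of strand are not given in the sources used here. The submitters' processing notes list the mouse builds GRCm38 and mm10, yet all 58735 gene identifiers are human and were found in GENCODE release 29 (GRCh38), which gave symbols, positions and lengths. The edgeR package (4.0.16, under R 4.3.3) was used with filterByExpr, TMM factors, a robust quasi-likelihood fit and two-sided tests. Benjamini-Hochberg adjustment ran over the 16561 genes that passed the filter. CPM values were computed here from the deposited counts with these factors. Standard errors and 95% intervals come from the F statistic. The fit was tested on simulated data. Total counts were 14117150 to 15282307. No 2 libraries agreed within sampling noise, so all were kept.

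The members and lists were chosen with earlier results of these data known. Named were the 8 members, HOXA3, EPHA4, EFNA5, the nearest coding genes beside EPHB2, the 2 genes of smallest p and the most abundant of each list, and the 3 genes with a pattern most like EPHB2 or EFNB2. Alternatives were DESeq2 1.42.0, other normalizations and filters, the replicate number as a block, limma 3.58.1 with voom and quality weights, and each library left out. Coding length and the removal of a length trend (mgcv 1.9.3, over the longest transcript) were added after the data were seen. Some genes and 1 partner list are not reported here.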

Additional observations from a re-analysis of the deposited data

How the results depend on the processing

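The log2 fold changes of EPHB1, EPHB2, EPHB3, EPHB4 and EPHB6 kept their sign and an adjusted p above 0.05 under all 14 alternatives. EPHB2 ranged from -0.41 without siHOXA3 replicate 3 to -0.13 without siHOXA3 replicate 2, and was at -0.15 with limma-voom and quality weights. EPHB6 ranged from -0.35 to -0.15 and EPHB4 from 0.08 to 0.21. EPHB1 ranged from -0.52 without siHOXA3 replicate 2 to -0.0044 without siHOXA3 replicate 3. The sign turned for EFNB1 (0.0604 with limma-voom, -0.11 to 0.0425 with 1 library left out), EFNB2 (-0.0082 to 0.0704) and EFNB3 (-0.0429 to 0.14). The number of members with an adjusted p under 0.05 was 0 throughout.

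The number of all genes with an adjusted p under 0.05 was 1 by edgeR, 38 by DESeq2, 100 with no filter, where 34513 genes were tested, and 67 with limma-voom and quality weights. It was 1 to 24 with 1 library left out, the 24 without siHOXA3 replicate 2. The cause was not tested. With the replicate number as a block it was 4, and EPHB2 was at -0.31 (adjusted p = 0.717 from edgeR). The numbers mark no shared batch in the labels, and correlations between the deviations of libraries with 1 number were 0.142, 0.104 and -0.0590, so the numbers were not read as a pairing. Not every library correlated best with its own number, and no member passed an adjusted p of 0.05 under the block, where EPHB2 had an unadjusted p of 0.0308. Depth limits EPHB1 most, with 16 to 39 counts in a library.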
